A study of Mus musculus with 20 samples.

Results

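The genes followed in DC2 cells encode mechanosensitive channels and polycystins: *Piezo1*, *Piezo2*, *Pkd1*, *Pkd2*, *Trpv4*, *Trpc1*, *Trpm7*, *Trpm4*, *Tmem63a* and *Tmem63b*. The members are a list of gene symbols with no threshold on their values, and all 10 were present among the 21509 protein-coding genes of each abundance table. Under flow and with Ift88 siRNA, 0 of the 9 members abundant enough to be tested passed the test. For all 9 the 95% confidence interval of the fold change, computed after adding 1 to each TPM, stayed inside 1.5-fold in both experiments. That addition shrinks the fold changes of genes at low TPM. With 0.1 added instead, the interval stayed inside 1.5-fold for 8 of the 9 members with Ift88 siRNA and for all 9 under flow. *Piezo2* was below the abundance filter in both tables. Larger differences lay between the members themselves, whose means in the flow table ran from 0.892 TPM (*Piezo2*) to 83.8 TPM (*Pkd2*), and between sets of replicate libraries.

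DC2 is an immortalised line derived from principal cells of the distal caput of the mouse epididymis. In the first experiment, 6 libraries (flow) were made after 3 h under fluid shear of 1 dyn/cm2 and set against 6 libraries of cells kept without flow (static). In the second, 4 libraries of cells transfected with Ift88 siRNA were set against 4 with control siRNA. According to the study's methods, the Ift88 siRNA was a mixture of siRNAs, the control was a scrambled sequence, both groups were exposed to flow, and the cells had been held in low serum, which favours ciliation; the labels of the siRNA samples name no flow. All libraries came from this single line. The library titled flow 6 carries a static treatment label and was counted as flow.

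A mechanosensitive channel opens when force reaches its gate through the membrane or through a tether. PIEZO1 and PIEZO2 are large trimeric cation channels gated by membrane tension. Polycystin-2, encoded by *Pkd2*, is a cation channel of the primary cilium and endoplasmic reticulum that assembles with polycystin-1, a large membrane receptor encoded by *Pkd1*; loss of either causes autosomal dominant polycystic kidney disease. TRPV4 is a calcium-permeable channel that responds to osmotic swelling and flow, TRPC1 is a channel subunit that can assemble with polycystin-2, TRPM7 is a channel fused to a kinase, and TRPM4 is a sodium-conducting channel opened by internal calcium. TMEM63A and TMEM63B are mammalian relatives of the osmosensitive OSCA channels of plants.

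Abundance was deposited as TPM, a unit that scales each library to the same total and corrects for transcript length, so levels of different genes can be set side by side within a table. The tables were quantified separately, so levels are compared within a table only. Each library held between 15292 and 16682 genes above 0. In the targeted check, *Ift88*, which encodes an intraflagellar transport protein needed to build the cilium, was at 1.71, 1.27, 1.28 and 0.917 TPM with Ift88 siRNA and at 4.21, 4.08, 4.15 and 4.12 TPM with control siRNA. Its groups did not overlap, and it fell by 1.17 on the log2(TPM + 1) scale (SE 0.13, adjusted p = 0.00212). Adding 1 to values this low understates the fall, and with 0.1 added instead its log2 fold change was -1.63. Defining principal cell markers were at or near 0: *Crisp1* and *Defb15* were at 0 in every library of both tables, *Lcn8* was at 0 in every library of the flow table, and *Aqp9* did not exceed 0.413 TPM. The 6 principal cell markers together reached no more than 0.374 TPM in the flow table and 1 TPM in the siRNA table, and most of the 6 epithelial markers were low too: *Epcam* did not exceed 0.332 TPM, *Krt8* 1.17, *Cldn7* 1.25 and *Cdh1* 1.73 TPM in any library. Only the keratins *Krt18*, at 23.2 TPM or more, and *Krt19*, at 5.32 TPM or more, were well above 0 in every library. Of the markers of other cell types, *Cd68*, a lysosomal protein that is abundant in macrophages, was at 10.1 to 64 TPM in the flow table. In the siRNA table it was at 87.1 to 98.9 TPM. The macrophage markers *Csf1r*, *Ptprc* and *Adgre1* stayed at or below 1.34 TPM in both. The basal cell marker *Itga6* was at 6.8 to 12.8 TPM in the flow table and 4.78 to 6.38 TPM in the siRNA table. The basal markers *Krt5*, *Krt14* and *Trp63* stayed at or below 0.377 TPM in both.

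Log2(TPM + 1) was compared with limma among genes whose mean over a table reached 1 TPM. A call needed both an adjusted p below 0.05 and more than a 1.5-fold difference. Under flow, 0.105% of the 11388 genes tested were called, against 0 of the 9 members. The 12 genes called were all higher, although 11 of the 86 genes called with library weights were lower. An unadjusted p under 0.05 was found for 438 of the genes tested and 0 members. With Ift88 siRNA, 0.223% of the 11209 genes tested were called (25 genes), against 0 of the 9 members. There 1561 of the genes tested and 0 members had an unadjusted p under 0.05. With so few genes called, a count of 0 among 9 members is near the background, as are the counts at an unadjusted p. The intervals of the fold changes carry the comparison. Flow and static libraries with the same replicate number deviated together, and with that number as a block 0.597% of genes were called (68 genes), again with 0 of the 9 members. The interval of *Trpv4* or *Trpm4* under flow reached past 1.5-fold in some of the other settings tried, such as library weights, while those of the other 7 members tested did not. The lowest adjusted p of any member was 0.998 under flow and 0.534 with the block (*Tmem63a*). In bulk RNA, fewer cells expressing a gene and less RNA per cell cannot be told apart.

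**Figure D1:**
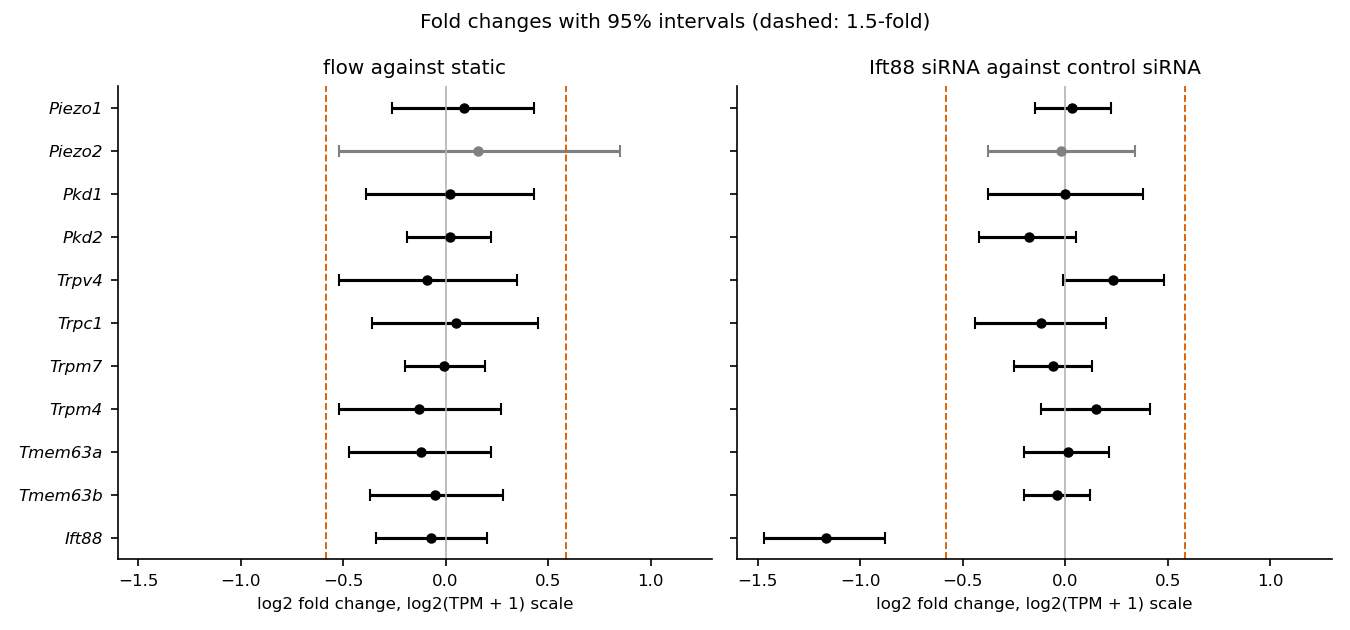
Log2 fold change of the 10 members and of *Ift88*, on the log2(TPM + 1) scale, in flow against static libraries (n = 6 per group) and in Ift88 siRNA against control siRNA libraries (n = 4 per group). Points are limma estimates, bars are 95% confidence intervals, grey marks *Piezo2* from the fit without the abundance filter, and dashed lines stand at 1.5-fold. The interval of each of the 9 members tested lies between the dashed lines in both panels, whereas that of *Ift88* with Ift88 siRNA runs from -1.47 to -0.88.

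Of the PIEZO channels, only *Piezo1* was well expressed. In GENCODE M21 (GRCm38), *Piezo1* lies on chromosome 8 from 122481698 to 122551329 on the minus strand. It was at 65.2, 44.2, 57.5, 74.5, 71.1 and 87.2 TPM in flow libraries 1 to 6 and at 48.1, 52.8, 52.9, 66.9, 70.4 and 84.7 TPM in static libraries 1 to 6. The groups overlapped across most of their range, although in 5 of 6 pairs with the same number the flow library was higher. The static mean was 62.6 ± 13.9 TPM (SD, n = 6) and the flow mean 66.6 ± 14.8 TPM (SD, n = 6), which gave a log2 fold change of 0.09 (SE 0.16) and an interval from 0.832-fold to 1.35-fold. With siRNA, *Piezo1* was at 26.9, 27.1, 28.2 and 23.4 TPM for Ift88 and at 24.8, 25.6, 28.2 and 24.6 TPM for the control. These groups overlapped too, and the log2 fold change was 0.03 (SE 0.08), from 0.9-fold to 1.16-fold.

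The exons of *Piezo1* share 2441 bases with those of *Ctu2*, a tRNA thiolation gene on the opposite strand, and 10.3% of the 31-base words in its transcripts also occur in transcripts of *Ctu2*. The libraries were directional, but the sources used here do not say whether strand was used in quantification. *Ctu2* averaged 41.5 ± 9.38 TPM in static and 47.6 ± 8.75 TPM in flow libraries (SD, n = 6 each), with a log2 fold change of 0.20 (SE 0.16, adjusted p = 0.998). With Ift88 siRNA its log2 fold change was -0.11 (SE 0.17, adjusted p = 0.834). Its part in the *Piezo1* values was not tested.

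*Piezo2*, the channel of touch and proprioceptive neurons, was close to the lower limit of these tables. Flow libraries 1 to 6 held 0.227, 0.327, 0.422, 0.992, 1.37 and 2.73 TPM, and static libraries 1 to 6 held 0.221, 0.11, 0.207, 0.812, 1.54 and 1.76 TPM. It was above 0 in every library, and the groups overlapped. In a fit of all genes above 0 in at least 1 library, its log2 fold change under flow was 0.16, with an interval from 0.696-fold to 1.8-fold. This interval reaches past 1.5-fold, so a change of that size was not excluded for *Piezo2*. In the main fit the flow intervals of the other members stayed inside 1.5-fold, but those of *Trpv4* and *Trpm4* did not in some other settings. In the siRNA table it was at 0.337, 0.958, 0.232 and 0.234 TPM for Ift88 and at 0.628, 0.261, 0.301 and 0.574 TPM for the control, with a log2 fold change of -0.02 in the same kind of fit. A fold change on the log2(TPM + 1) scale understates changes at such levels.

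The polycystin genes were expressed unequally. *Pkd2* (chromosome 5, 104459450 to 104505819, plus strand) was the highest member in the flow table, at 74.3, 92.5, 69.1, 87.4, 95.7 and 87.2 TPM in flow libraries 1 to 6 and 67.8, 80.6, 82.3, 90.6, 94.1 and 84.7 TPM in static libraries 1 to 6. *Pkd1* (chromosome 17, 24549834 to 24596508, plus strand) was at 12.6, 18.5, 11.2, 16.5, 24.9 and 21.7 TPM under flow and 12.1, 15.3, 15.7, 15.1, 23.8 and 20.5 TPM in static cells. For both genes the flow and static ranges overlapped almost fully. Within a library, *Pkd2* exceeded *Pkd1* by 5.03 ± 0.814 times in static and 5.03 ± 0.946 times in flow libraries (SD, n = 6 each). Neither passed the test under flow, with a log2 fold change of 0.02 for both (SE 0.10 for *Pkd2* and 0.19 for *Pkd1*). The interval of *Pkd2*, from 0.877-fold to 1.17-fold, was among the narrowest of the members, and that of *Pkd1* ran from 0.763-fold to 1.35-fold.

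Ift88 siRNA also left both polycystins without a call. *Pkd2* was at 20.8, 21.9, 22.7 and 16.4 TPM with Ift88 siRNA and at 22.3, 20.8, 26.1 and 23.9 TPM with control siRNA. The ranges overlapped, with the lowest value in an Ift88 library and the highest in a control library. Its log2 fold change was -0.18 (SE 0.11, adjusted p = 0.482), from 0.747-fold to 1.04-fold. *Pkd1* was at 15.3, 10.8, 7.98 and 9.63 TPM with Ift88 siRNA and at 8.37, 13.4, 11.4 and 10.1 TPM with control siRNA. Both the highest and the lowest *Pkd1* value were found with Ift88 siRNA, and the log2 fold change was -0.00 (SE 0.18), from 0.766-fold to 1.3-fold. Within a library, *Pkd2* exceeded *Pkd1* by 2.22 ± 0.473 times with control siRNA and by 1.98 ± 0.637 times with Ift88 siRNA (SD, n = 4 each). *Pkd1* shares 693 exonic bases with *Tsc2*, a tumour suppressor gene on the opposite strand, and 4.46% of its 31-base words. *Tsc2* was not called either, with a log2 fold change of -0.05 (SE 0.13) under flow and -0.02 (SE 0.10) with Ift88 siRNA.

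**Figure D2:**
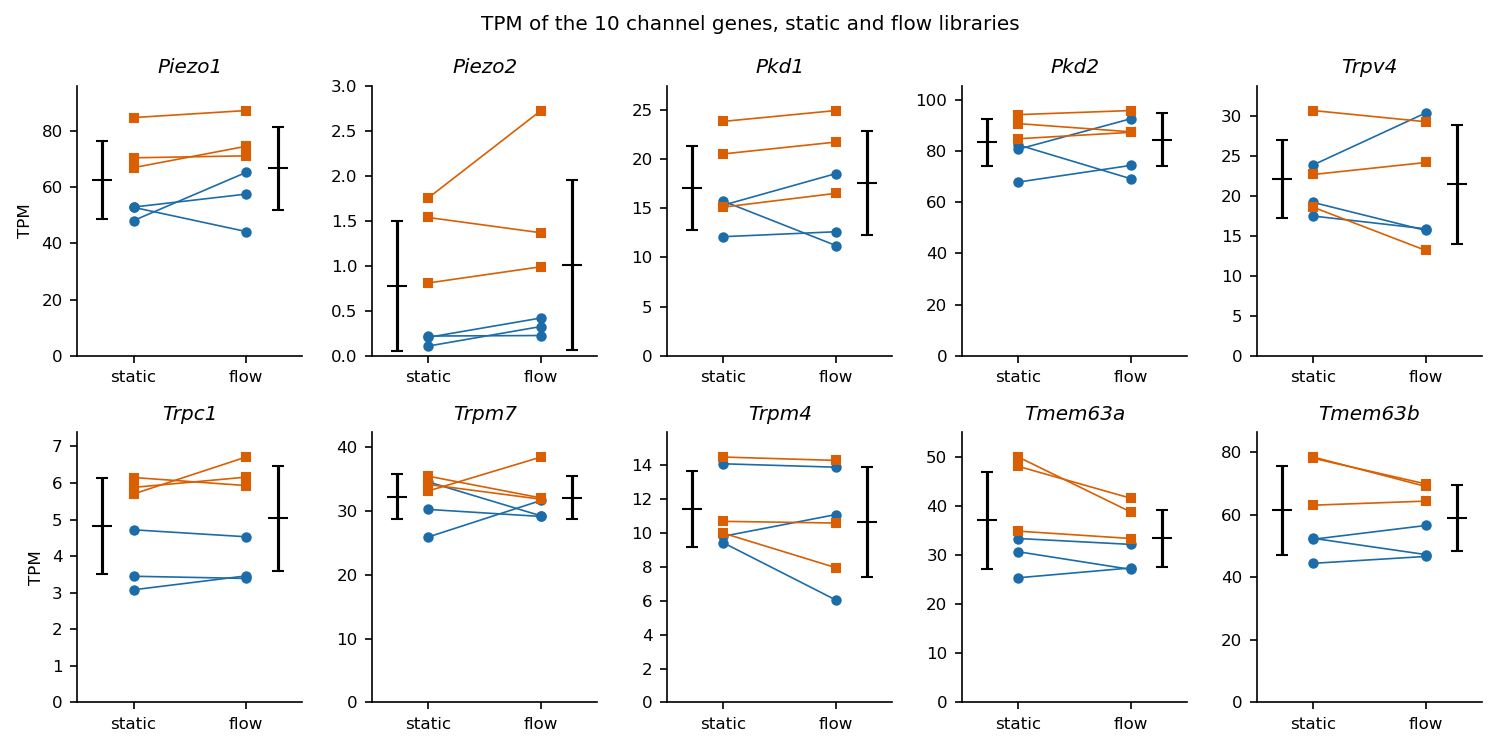
TPM of each of the 10 members (vertical axis, from 0, on its own scale in each panel) in static and flow libraries. Lines join libraries of the same replicate number, circles in blue are replicates 1 to 3, squares in orange are replicates 4 to 6, and black bars are mean ± SD (n = 6). Flow and static values overlap in every panel, while the orange squares lie wholly above the blue circles for *Piezo1*, *Piezo2*, *Trpc1* and *Tmem63b*.

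The TRP channels spanned a wide range of levels. *Trpm7* (chromosome 2, 126791565 to 126876230, minus strand) was at 31.6, 29.2, 29.1, 31.8, 38.4 and 32 TPM in flow libraries 1 to 6 and at 25.9, 34.5, 30.2, 34.1, 33.1 and 35.4 TPM in static libraries 1 to 6. It varied little between libraries, and its log2 fold change under flow was -0.01 (SE 0.09), from 0.87-fold to 1.14-fold. With Ift88 siRNA it was at 33.1, 30.8, 30 and 25.8 TPM, against 32.2, 31.8, 31.6 and 28.5 TPM with control siRNA. There its log2 fold change was -0.06 (SE 0.09), from 0.843-fold to 1.1-fold.

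*Trpv4* (chromosome 5, 114622152 to 114658421, minus strand) varied more. It was at 15.9, 30.4, 15.7, 13.2, 29.3 and 24.2 TPM in flow libraries 1 to 6 and at 17.5, 23.9, 19.2, 18.6, 30.7 and 22.7 TPM in static libraries 1 to 6. The flow libraries held the lowest value and the second highest, so their range covered nearly all of the static range. Its log2 fold change under flow was -0.09 (SE 0.20), from 0.696-fold to 1.27-fold. In the siRNA table *Trpv4* was at 53.1, 48, 37.9 and 38.2 TPM with Ift88 siRNA and at 40.4, 39.7, 35.8 and 33 TPM with control siRNA. The 2 highest values were in Ift88 libraries, but the ranges overlapped. Its log2 fold change of 0.23 (SE 0.11) had the lowest adjusted p of any member in either experiment and did not pass the test (adjusted p = 0.38), with an interval from 0.994-fold to 1.39-fold.

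*Trpm4* and *Trpc1* were the lowest of the TRP members. *Trpm4* (chromosome 7, 45302632 to 45333780, minus strand) was at 11.1, 13.9, 6.05, 7.96, 14.3 and 10.6 TPM in flow libraries 1 to 6 and at 9.82, 14.1, 9.43, 10, 14.5 and 10.7 TPM in static libraries 1 to 6. It was lower under flow in 5 of 6 pairs, mostly by little, and its log2 fold change was -0.13 (SE 0.18), from 0.695-fold to 1.2-fold. The 4 libraries numbered 2 or 5 held the 4 highest *Trpm4* values, 13.9 to 14.5 TPM against 6.05 to 11.1 TPM in the other 8. The same libraries held 3 of the 4 highest *Trpv4* values, a likeness that was seen only after the values were known. In the siRNA table *Trpm4* was at 14.4, 15.9, 14.8 and 11.4 TPM with Ift88 siRNA and at 13.3, 12.2, 14.6 and 10.5 TPM with control siRNA. The ranges overlapped, with a log2 fold change of 0.15 (SE 0.12, adjusted p = 0.638).

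*Trpc1* (chromosome 9, 95705082 to 95750375, minus strand) was at 3.46, 4.53, 3.39, 6.16, 6.71 and 5.93 TPM in flow libraries 1 to 6 and at 3.08, 4.72, 3.45, 5.88, 5.7 and 6.15 TPM in static libraries 1 to 6. The values fell into a low set in replicates 1 to 3 and a high set in replicates 4 to 6, with flow and static libraries mixed in each. Flow libraries differed by a log2 fold change of 0.05 (SE 0.19), from 0.781-fold to 1.36-fold. After transfection *Trpc1* was at 1.95, 2.28, 2.68 and 1.63 TPM with Ift88 siRNA and at 2.24, 1.93, 2.85 and 2.59 TPM with control siRNA. These ranges overlapped, with a log2 fold change of -0.12 (SE 0.15), from 0.736-fold to 1.15-fold. At these levels too, the log2(TPM + 1) scale understates fold changes and narrows their interval.

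Both *Tmem63* genes were expressed. *Tmem63b* (chromosome 17, 45660171 to 45686905, minus strand) was at 46.7, 56.6, 47.3, 64.4, 69.9 and 69.1 TPM in flow libraries 1 to 6 and at 44.5, 52.2, 52.5, 63.1, 78.1 and 78.5 TPM in static libraries 1 to 6. *Tmem63a* (chromosome 1, 180942344 to 180975112, plus strand) was at 27.4, 32.2, 27.1, 33.4, 38.8 and 41.6 TPM under flow and at 25.4, 33.4, 30.7, 34.9, 50 and 48.1 TPM in static cells. Static libraries 5 and 6 stood highest for both genes, and the groups overlapped. *Tmem63a* was lower under flow in 5 of 6 pairs, with a log2 fold change of -0.12 (SE 0.16), from 0.723-fold to 1.17-fold. With the replicate block its adjusted p was the lowest of the members and still did not pass (adjusted p = 0.534). For *Tmem63b* the log2 fold change under flow was -0.05 (SE 0.15), from 0.773-fold to 1.21-fold. The ratio of *Tmem63b* to *Tmem63a* within a library was 1.67 ± 0.103 in static and 1.77 ± 0.0918 in flow libraries (SD, n = 6 each), the smallest spread for its size of the 5 ratios computed in the flow table.

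In the siRNA table *Tmem63b* was the highest member, at 78.9, 71.9, 67.6 and 65.3 TPM with Ift88 siRNA and at 76.8, 68.9, 75.3 and 69.5 TPM with control siRNA. *Tmem63a* was at 30.2, 33.5, 27.9 and 30.3 TPM with Ift88 siRNA and at 33.9, 26.9, 27.6 and 33 TPM with control siRNA. The ranges overlapped for both. With Ift88 siRNA the log2 fold change was -0.04 (SE 0.07) for *Tmem63b*, from 0.873-fold to 1.09-fold, and 0.01 (SE 0.09) for *Tmem63a*, from 0.873-fold to 1.16-fold. *Tmem63b* shares 106 exonic bases with *Mrpl14*, a mitochondrial ribosomal protein gene on the opposite strand, but 0% of its 31-base words. *Tmem63b* also shares 288 exonic bases with the antisense gene *Gm16172*, and *Tmem63a* shares 157 with the antisense gene *2210411M09Rik*. The 31-base words were compared with protein-coding genes only. *Mrpl14* had a log2 fold change of -0.09 (SE 0.09) under flow and 0.05 (SE 0.08) with Ift88 siRNA.

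**Figure D3:**
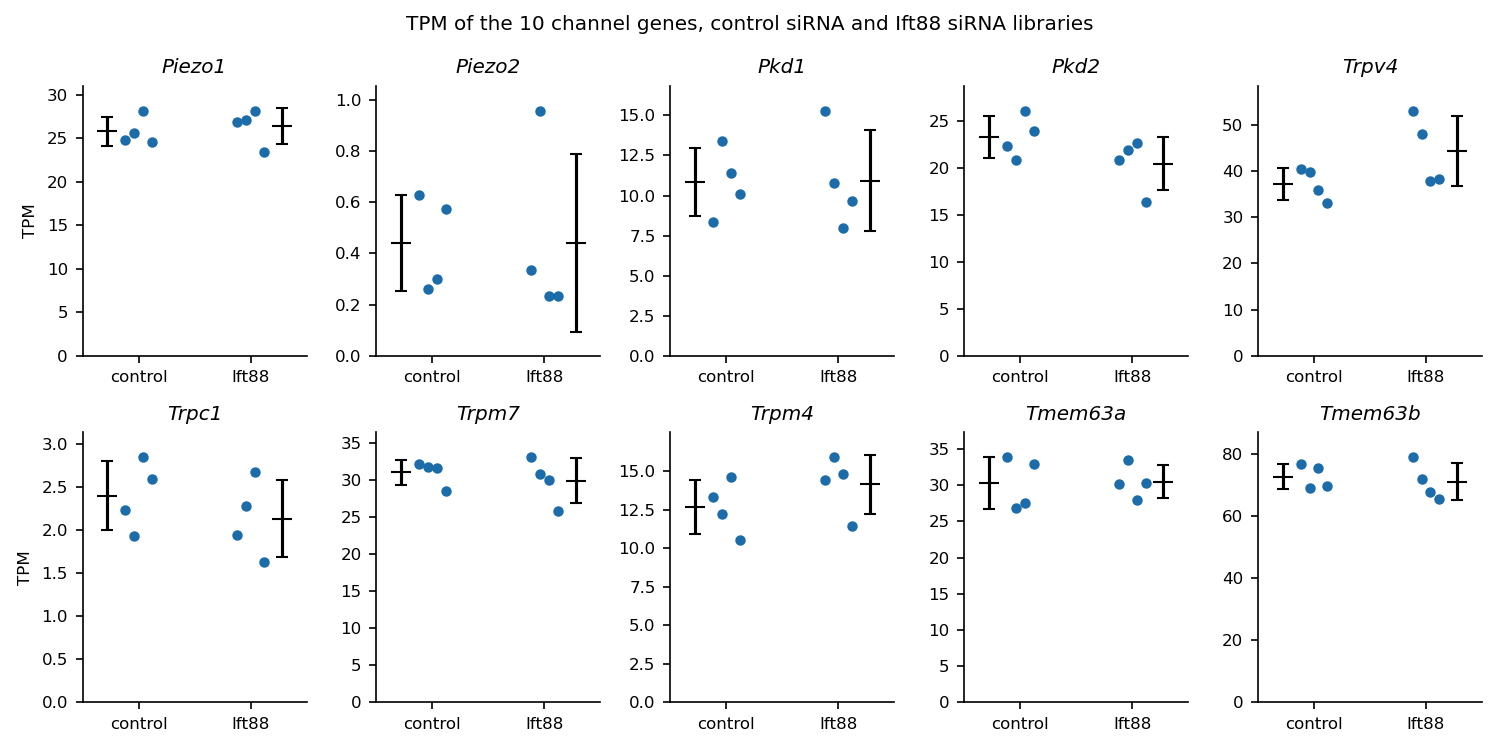
TPM of each of the 10 members (vertical axis, from 0, on its own scale in each panel) in control siRNA and Ift88 siRNA libraries. Points are single libraries, ordered by replicate number within a group, and black bars are mean ± SD (n = 4). The groups overlap in every panel, and *Trpv4* is at 37.9 to 53.1 TPM with Ift88 siRNA against 33 to 40.4 TPM with control siRNA.

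Across the 10 genes, 0 of the 9 members tested had groups without overlap in either experiment. Among all genes tested, 0.544% did so for flow against static and 8.58% for Ift88 siRNA against control siRNA. At these shares a count of 0 among 9 members is near the background. The median log2 fold change of the members tested was -0.01 under flow and 0.00 with Ift88 siRNA, against -0.03 and 0.02 for all genes tested. Summed over the 10 members, the level was 333 ± 57.2 TPM in static and 331 ± 49.4 TPM in flow libraries (SD, n = 6 each). In the siRNA table the sum was 247 ± 9.22 TPM with control siRNA and 250 ± 23.6 TPM with Ift88 siRNA (SD, n = 4 each). The study's methods call the flow and static libraries experimental replicates, 6 per condition, while the series' design text names 4 experiments for flow and 4 separate cell samples for the siRNA, and the sample labels give only a number. The p-values measure the spread between these libraries, part of which may be technical.

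Ordered by mean TPM, both groups of the flow table gave *Pkd2*, *Piezo1*, *Tmem63b*, *Tmem63a*, *Trpm7*, *Trpv4*, *Pkd1*, *Trpm4*, *Trpc1* and *Piezo2*. In each group 7 of the 9 neighbouring pairs in this order overlapped in range. Within single libraries the order was steadier: of these 7 pairs, 3 under flow and 4 in static cells held the same order in all 6 libraries, among them *Pkd1* above *Trpm4* in both groups. *Trpc1* and *Piezo2* were apart in both groups. *Piezo1* and *Tmem63b* were particularly close, at 66.6 and 59 TPM under flow and 62.6 and 61.5 TPM in static cells. In the control siRNA libraries the order was *Tmem63b*, *Trpv4*, *Trpm7*, *Tmem63a*, *Piezo1*, *Pkd2*, *Trpm4*, *Pkd1*, *Trpc1* and *Piezo2*, and with Ift88 siRNA *Trpm7* and *Tmem63a* changed places. There 4 of the 9 neighbouring pairs overlapped with control siRNA and 3 of the 9 with Ift88 siRNA, and *Tmem63b* stood apart from *Trpv4*, and *Trpv4* from the next gene, in both groups. *Trpv4* exceeded *Piezo1* within a library by 1.45 ± 0.17 times with control siRNA and by 1.68 ± 0.265 times with Ift88 siRNA (SD, n = 4 each).

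A larger difference ran through the flow table along the replicate numbers. The first principal component, with 34.4% of the variance, separated replicates 1 to 3 from replicates 4 to 6, flow and static alike. The split was known from earlier results of these data, so the counts across it describe it and do not test it. All 9 members tested had a higher mean in replicates 4 to 6, as did 73.9% of all genes tested, and for 3 of them, *Piezo1*, *Trpc1* and *Tmem63b*, the 6 libraries of the later numbers lay wholly above the other 6. Over the whole table, 8.60% of the genes tested were higher in replicates 4 to 6 without overlap (979 genes), and 95 genes were lower. *Trpc1* was at 6.09 ± 0.352 TPM (SD, n = 6) in replicates 4 to 6 and 3.77 ± 0.677 TPM (SD, n = 6) in replicates 1 to 3, a ratio of 1.61. *Piezo1* was at 75.8 ± 8.25 against 53.4 ± 7.34 TPM (SD, n = 6 each), and *Tmem63b* at 70.5 ± 6.58 against 50 ± 4.55 TPM (SD, n = 6 each). *Piezo2*, under the filter, was also without overlap, at 0.812 to 2.73 TPM in replicates 4 to 6 and 0.11 to 0.422 TPM in replicates 1 to 3. *Trpm4* had the smallest such difference, with a ratio of 1.06.

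Each set of replicates holds 3 flow and 3 static libraries, so the flow comparison can be made within them. Within replicates 1 to 3 the members' log2 fold changes lay between -0.14 (*Trpm4*) and 0.10 (*Piezo1*), and within replicates 4 to 6 those of the same 9 members lay between -0.21 (*Tmem63a*) and 0.09 (*Pkd1*), with 0 members called in either. In a test of whether the flow difference itself differed between the sets, *Tmem63a* had a difference of -0.17 (SE 0.21) and *Pkd1* of 0.13 (SE 0.30), and the adjusted p was 1 for all 9 members. The interval for *Trpv4*, from -1.04 to 0.79 on the log2 scale, shows how little this test can resolve for the more variable members. The labels give no date or batch for either set of numbers.

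Other genes of these pathways were counted from lists. Of 8 further polycystin family genes, 2 were tested under flow, *Pkd2l2* and *Pkhd1* (fibrocystin, the product of the recessive polycystic kidney disease gene), and 0 were called in either experiment. Of 21 further TRP channels, 3 were tested under flow and 4 with Ift88 siRNA, and 0 were called. The highest was *Mcoln1*, a lysosomal calcium channel, at 71.9 ± 16.3 TPM in static and 62 ± 14.4 TPM in flow libraries (SD, n = 6 each). Of 20 other channels named for mechanical or osmotic gating, 11 were tested under flow and 9 with Ift88 siRNA, with 0 called. Their highest in the flow table were *Lrrc8b* and *Lrrc8d*, subunits of the volume-regulated anion channel, and *Scnn1g*, a subunit of the epithelial sodium channel, was listed at 0 there in every library.

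Among genes that act on these channels, 0 were called too. Of 4 PIEZO partners, *Tmem120a* and *Mdfic*, the latter an auxiliary subunit of PIEZO channels, were tested and not called. *Mdfic* averaged 6.05 ± 0.956 TPM with control siRNA and 7.8 ± 1.26 TPM with Ift88 siRNA (SD, n = 4 each), which gave a log2 fold change of 0.32 (SE 0.14, adjusted p = 0.326). All 7 genes for folding, glycosylation and translocation of polycystins in the endoplasmic reticulum were tested, and 0 were called in either experiment. Among them *Sec61b*, a translocon subunit, had a log2 fold change of -0.01 (SE 0.07) under flow, and *Ganab*, which encodes the catalytic subunit of glucosidase II, one of -0.02 (SE 0.12). With Ift88 siRNA *Sec61b* averaged 219 ± 12.3 TPM, against 204 ± 23.9 TPM with control siRNA. *Ganab* averaged 228 ± 24.3 against 201 ± 13.4 TPM (SD, n = 4 each). Of 16 genes of calcium stores and calcium entry, 12 were tested under flow and 11 with Ift88 siRNA, and 0 were called. With Ift88 siRNA, limma gave an unadjusted p under 0.05 for 2 PIEZO partners, 2 polycystin biogenesis genes and 1 calcium gene. That held for 1561 of all 11209 genes tested. *Atp2a2*, the calcium pump of the endoplasmic reticulum, averaged 261 ± 26 TPM in static and 282 ± 34 TPM in flow libraries (SD, n = 6 each). *Atp2b1*, the next highest of this list, averaged 52.9 ± 4.3 TPM in static and 54.5 ± 4.76 TPM in flow libraries (SD, n = 6 each). With Ift88 siRNA it was at 173 to 204 TPM, against 208 to 219 TPM with control siRNA, and was not called. Groups without overlap were found for 8.58% of all genes tested there.

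Of 10 genes of calcineurin and NFAT, which carry a calcium signal to the nucleus, 9 were tested under flow and 8 with Ift88 siRNA, and 0 were called. *Ppp3r1*, the regulatory calcineurin subunit, averaged 81 ± 4.46 TPM in static and 80.9 ± 5.38 TPM in flow libraries (SD, n = 6 each). *Rcan1*, a calcineurin inhibitor whose transcription calcineurin induces, stood apart from the other listed genes without passing the test. It was at 42.5, 36.6, 41.1, 68.4, 175 and 163 TPM in flow libraries 1 to 6 and at 26.5, 30, 32.4, 29.3, 34.4 and 29 TPM in static libraries 1 to 6. Each flow value lay above each static value, and flow libraries 5 and 6 were far above the other flow libraries. Its log2 fold change of 1.20 (SE 0.35) had an adjusted p of 0.462, and of 0.106 with the replicate block. Over the 23 settings tried, it was not called in any, with an adjusted p between 0.0545 and 1. It was 0.42 (SE 0.11) within replicates 1 to 3 and 1.99 (SE 0.32) within replicates 4 to 6, and the test of that difference gave 1.56 (SE 0.38, adjusted p = 0.884). With the library titled flow 6 counted as static, the log2 fold change was 0.62 (adjusted p = 1). With siRNA, *Rcan1* averaged 84.5 ± 7.31 TPM for the control and 97.2 ± 9.52 TPM for Ift88 (SD, n = 4 each, adjusted p = 0.314).

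**Figure D4:**
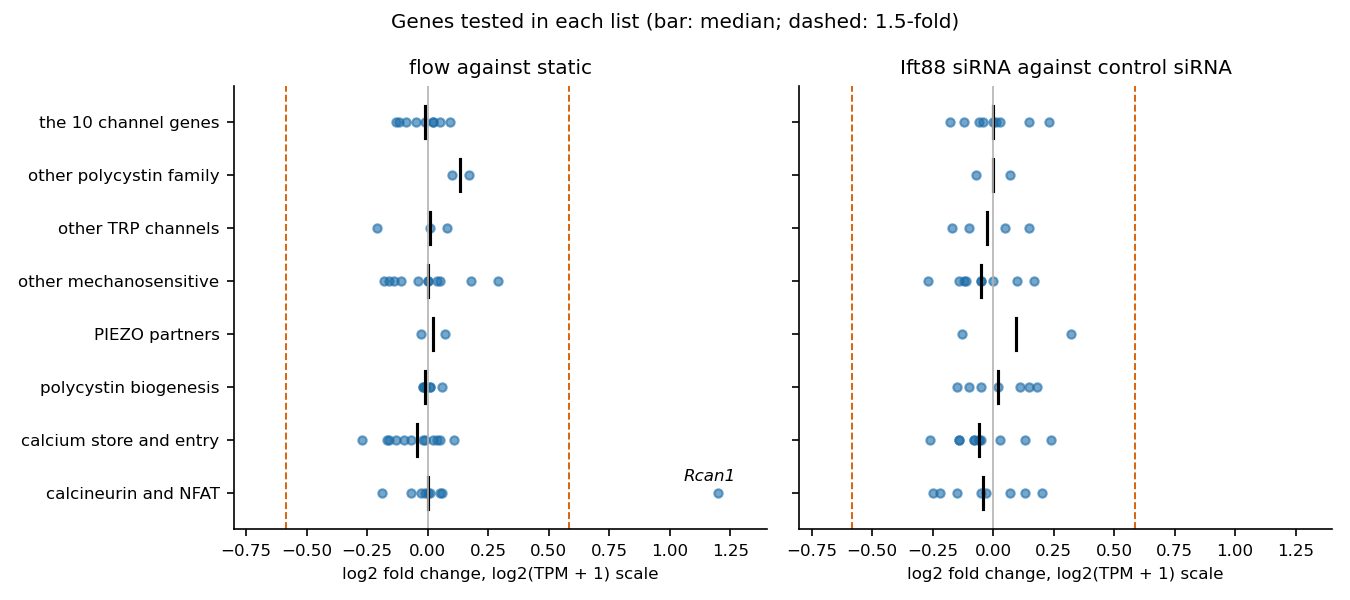
Log2 fold change, on the log2(TPM + 1) scale, of every tested gene of the 10 members and of the 7 lists of related genes, in flow against static and in Ift88 siRNA against control siRNA libraries. Points are genes, bars are medians of a list, and dashed lines stand at 1.5-fold. *Rcan1* under flow, at 1.20 and not called, is the only point beyond the dashed lines.

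Promoters of the members and of *Rcan1* were searched for short motifs of factors that respond to calcium, serum or stretch. RefSeq promoter windows (GRCm38.p6) matched 8 of the 10 members, with *Piezo2* and *Trpm4* named only, and the 250 bases before each start were searched on both strands. AP-1 (TGACTCA) was in 4.46% of all 32851 promoters, CRE (TGACGTCA) in 1.55% and EGR (GCGTGGGCG) in 0.536%, and in 0 of the 8 members' windows. TEAD (GGAATG) was in 12.6% of promoters and in that of *Pkd2*, and the CArG box, the site of serum response factor, was in 1.47% and in that of *Tmem63a*. An inner *Rcan1* promoter on the minus strand held an AP-1 and a CRE match. The stretches that hold these matches are printed below from 5′ to 3′ on the strand of the gene, with the motif in capitals, at chr16:92400172-92400198 (AP-1) and chr16:92400236-92400263 (CRE) for *Rcan1*, chr5:104459404-104459429 for *Pkd2* and chr1:180942398-180942427 for *Tmem63a*.
Rcan1 AP-1: atgcgggaccTGACTCAggaatttgct
Rcan1 CRE: actaaggtgtTGACGTCAcctctttcca
Pkd2 TEAD: ctaccccgtaGGAATGtgggcaccga
Tmem63a CArG box: agcgaagagtCCAAATTAGGtaacgcgtgg

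The AP-1 and CRE matches begin 110 and 175 bases before the inner *Rcan1* start, the TEAD match 43 bases before the start of *Pkd2*, and the CArG box 110 bases before that of *Tmem63a*, all counted from RefSeq starts. The RefSeq start of *Tmem63a* lies downstream of the GENCODE start given above, so its CArG box is inside the gene as GENCODE annotates it. A match describes letters in a window, not a bound site. GC content of the 8 member windows ranged from 52.8% (*Pkd2*) to 75.6% (*Tmem63b*), with a median of 65%, against a median of 52.4% over all promoters. The *Tmem63b* window lies wholly inside the gene as GENCODE annotates it. *Pkd2*, the highest member in the flow table, had the promoter window lowest in GC, and its ratio of observed to expected CpG, 0.236, was also the lowest of the 8, below the median of 0.373 over all promoters.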

How the data were processed

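Per the study's methods and the processing notes, the authors checked reads with FastQC 0.11.8 and MultiQC 1.8, trimmed them (Trimmomatic in the methods, fastp 0.20.0 in the notes), pseudoaligned them with kallisto 0.46.2 to mouse transcripts of Ensembl 110 and summarised genes with tximport. The deposited TPM sum to 1000000 per library, so the depth of each single library, and with it counting error, is unknown. The study's methods give only a mean depth per sample. All library columns were used, and 78 genes without a symbol stayed in the fits.

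From the deposited TPM, log2(TPM + 1) was fitted with limma 3.58.1 in R 4.3.3 (lmFit, then eBayes with a trend), keeping genes whose mean reached 1 TPM, and p-values were adjusted by Benjamini-Hochberg over all genes tested. The fitting script was also tested on simulated data. Correlations of same-numbered libraries' deviations were 0.294 to 0.662 in the flow table and 0.00276 to 0.259 in the siRNA table. The flow-table numbers were therefore taken as pairs in counts of pairs and in the fit with a block. Flow library 3 was not best correlated with the static library of its own number. The main fits used no pairing. The members and lists were chosen with earlier results of these data known. Named were all members, *Ift88*, the 2 genes of each list highest in the flow table, genes called or at 0 in every library, and genes sharing exonic bases with a member. *Mdfic*, *Pkd2l2* and *Pkhd1* fall under this rule. Positions are from GENCODE M21 (GRCm38), an older build than the authors'. Alternatives are given in the closing section. Figures used Python 3.11.15 and matplotlib 3.10.9.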

Additional observations from a re-analysis of the deposited data

Results flagged for a closer look

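Among 44 sets of values, the 10 members and *Ift88* in 4 groups, 3 held a library far from the others by Dixon's ratio, the gap to the nearest library divided by the range of the group, set against its 95% critical value. Chance marks about 1 in 20 groups. *Trpm7* in flow library 5 was at 38.4 TPM, with the next flow library at 32 and the lowest at 29.1 TPM (ratio 0.688). *Piezo2* in Ift88 siRNA library 2 was at 0.958 TPM, with the others at 0.232 to 0.337 TPM (ratio 0.855). *Trpm7* in control siRNA library 4 was at 28.5 TPM, with the others at 31.6 to 32.2 TPM (ratio 0.837).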

How the results depend on the processing

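No member was called under any alternative tried in either experiment. Of 200 alternative values of the members' log2 fold change under flow, 37 had another sign than the main value and 1 moved by more than its standard error, that of *Trpv4* to -0.30 with library weights (adjusted p = 0.287). They lay between -0.30 and 0.23, with a lowest adjusted p of 0.278 (*Piezo1*, library weights). Of 127 with Ift88 siRNA, 12 had another sign and 0 moved so far. They lay between -0.23 and 0.30, with a lowest adjusted p of 0.126 (*Trpv4*, replicate block). Under flow, the interval inside 1.5-fold held for 7 or 8 of the 9 members with library weights, with 6 of the 12 flow-table libraries left out in turn, within each set of replicates, and when the library titled flow 6 was counted as static or both libraries numbered 6 were left out. The exceptions were *Trpv4* and *Trpm4*. With Ift88 siRNA it held for 8 of the 9 members at a pseudocount of 0.1. *Ift88* kept its fall throughout, between -1.26 and -1.09 with 1 library left out.

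The count of all genes called moved more. Under flow it was 12, and 2 without the abundance filter, 28 with median-of-ratios scaling, 86 with library weights (75 higher, 11 lower), 68 with the replicate block, 0 with the library titled flow 6 counted as static (181 at an unadjusted p under 0.05), 4 without the libraries numbered 6, 5 within replicates 1 to 3, 56 within replicates 4 to 6, and 5 to 87 with 1 library left out, the highest without flow library 2 (76 higher, 11 lower) and the lowest without flow library 4. With Ift88 siRNA it was 25, and 6 without the filter, 16 with a filter of 0.3 TPM, 48 with library weights, 44 with the replicate block, 71 without the fold threshold, and 11 to 23 with 1 library left out. The siRNA numbers did not meet the threshold for pairs, and 2 of the 4 numbers had their own partner as best correlated. The causes were not tested. TPM do not show how many reads stand behind the low values of *Piezo2* and *Trpc1*.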
